A study of Homo sapiens with 14 samples.

Results

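The laminin chain genes were followed in RNA of MCF-10A cells, an immortalised, non-tumorigenic line of human mammary epithelial cells. The set comprised 9 genes: the alpha chain genes LAMA1, LAMA2, LAMA3, LAMA4 and LAMA5, the beta chain genes LAMB1, LAMB2 and LAMB3, and the gamma chain gene LAMC1. Each was found by its symbol among the names of the 34071 loci of the expression table, and each matched 1 locus. Of the 9 genes, 7 passed a filter of at least 1 FPKM in at least 2 libraries. LAMA1 and LAMA4 did not pass and were not tested.

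FPKM values are fragment numbers scaled by gene length and library size, so levels can be set side by side between genes. The 14 RNA libraries formed 7 groups of 2, all harvested 2 days after retroviral infection. MRTFB dN cells received an MRTFB form that cannot bind G-actin. MRTFB dN dPY cells received the same form also lacking YAP binding, MRTFB dN Y305A cells the form also lacking SRF binding, and MRTFB dN Y305A/dPY cells the form lacking both. YAP 5SA cells received hyperactive YAP, and the remaining groups received the empty pMSCV Puro or pMSCV Hygro vector. The labels name no deletion of the cells' own genes. The labels do not say which vector belongs to which construct, nor whether replicates were separate cultures, so p-values measure the spread between these samples, which may be technical. Here the Puro vector served as control of the MRTFB forms and the Hygro vector as control of YAP 5SA.

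Laminins are secreted trimers of 1 alpha, 1 beta and 1 gamma chain that build the sheet-like network of basement membranes. Laminin-332, which contains the LAMA3 and LAMB3 products, anchors basal epithelial cells to the membrane through integrin alpha6 beta4 in hemidesmosomes. The LAMB1 and LAMC1 products are shared by many laminins, with the alpha chain setting receptor binding. MRTFB is a coactivator of SRF that monomeric actin holds inactive, and YAP is a coactivator of the TEAD factors.

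The promoters of the strongly expressed chain genes are shown because the constructs act through DNA-bound factors whose motifs are short. RefSeq (GRCh38.p14) gave windows of 250 bases before the start site for 8 of the 9 genes, 10 windows in all. The windows of LAMC1 and LAMB1, the genes with called changes and high levels, and of LAMA3 and LAMB3 are printed 5′ to 3′ on the gene's strand. Capitals mark matches on either strand to TGANTCA, the AP-1 motif, and to GGGCGG, the GC box.
LAMC1 (chr1:183023170-183023419, plus strand): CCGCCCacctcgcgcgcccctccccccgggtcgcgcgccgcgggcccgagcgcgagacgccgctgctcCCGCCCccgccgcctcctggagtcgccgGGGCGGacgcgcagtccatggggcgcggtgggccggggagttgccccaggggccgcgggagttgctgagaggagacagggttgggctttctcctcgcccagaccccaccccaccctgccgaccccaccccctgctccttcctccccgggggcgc
LAMB1 (chr7:108003162-108003411, minus strand): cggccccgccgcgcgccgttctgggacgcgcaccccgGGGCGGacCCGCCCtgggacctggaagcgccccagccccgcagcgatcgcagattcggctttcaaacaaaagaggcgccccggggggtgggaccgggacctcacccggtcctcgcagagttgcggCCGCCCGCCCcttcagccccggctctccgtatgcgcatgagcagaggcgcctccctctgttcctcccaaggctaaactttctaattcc
LAMA3 (chr18:23872770-23873019, plus strand): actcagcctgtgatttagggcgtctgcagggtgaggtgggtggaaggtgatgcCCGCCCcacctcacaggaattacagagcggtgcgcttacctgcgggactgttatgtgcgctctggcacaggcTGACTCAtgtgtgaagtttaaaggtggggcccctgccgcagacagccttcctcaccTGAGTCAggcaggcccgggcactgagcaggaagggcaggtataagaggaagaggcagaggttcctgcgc
LAMB3 (chr1:209651375-209651624, minus strand): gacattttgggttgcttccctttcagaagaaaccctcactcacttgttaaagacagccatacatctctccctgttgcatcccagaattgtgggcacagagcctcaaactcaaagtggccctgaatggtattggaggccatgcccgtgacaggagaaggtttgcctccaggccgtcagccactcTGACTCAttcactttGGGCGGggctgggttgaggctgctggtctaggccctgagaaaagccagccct

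The CArG box, the SRF motif, was found in 0 of the 10 windows, against 1.16% of the 35116 human windows of this length. TGANTCA was found in 2 windows, against 6.57% of all. LAMA3 held it at 125 to 119 and at 69 to 63 bases before the start, and LAMB3 at 67 to 61 bases before this one of its 3 starts. GGAATG, a TEAD motif, was found in 1 window, that of LAMA2, against 11.9% of all. GGGCGG was found in 8 windows, against 42.6% of all, with 3 matches in LAMC1 and 4 in LAMB1, of which the last pair overlap each other. These windows belong to LAMC1, LAMB1, LAMB2, LAMB3, LAMA3 and LAMA5. The LAMB3 windows at 209652426-209652675 and 209652330-209652579 overlap and hold the same GGGCGG match, so that match is counted more than once. These are matches of letters within a short window and carry no statement on binding.

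Values of MRTFB dN dPY replicate 1 end at a point on chromosome 7, and 5257 loci beyond it, LAMB1 among them, were treated as missing in that library. Puro vector replicate 1 stood apart: its depth was estimated at 0.314 of that of Hygro vector replicate 1, while the other libraries lay between 0.518 and 1.42, and 58.8% of its FPKM fell in unnamed loci, against 9.99% to 38.6% elsewhere. MRTFB, listed as MKL2, ran from 165 to 610 FPKM over the 8 libraries that received it, against 6.60 and 3.66 FPKM in the Puro vector libraries. YAP1 reached 625 and 529 FPKM with YAP 5SA, against 32.4 and 23.3 FPKM in the Hygro vector libraries. The basal mammary markers were at a mean of 1 FPKM or more for 7 of 7 genes, with summed levels of 1736 to 53631 FPKM. Among the leukocyte, endothelial and fibroblast markers, PTPRC, CD3E, PECAM1, LUM and COL1A2 were at or near 0 in every library, but not all were: CDH5 ran from 0 to 14.6 FPKM, DCN from 0 to 13.7, COL3A1 from 0 to 3.76, COL1A1 from 0.485 to 3.12 and CD14 from 1.31 to 149 FPKM. The CD68 locus, at 295 to 793 FPKM, also carries EIF4A1 and other genes. KRT8, a keratin gene, was listed at 0 in replicate 1 of MRTFB dN Y305A and of MRTFB dN Y305A/dPY but at 12554.5 and 9623 FPKM in their replicate 2, so a listed 0 may be a failed estimate. No laminin gene was listed at 0 outside the missing stretch.

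In order of mean level over the libraries, LAMB3 stood first at 549 FPKM, followed by LAMA3 at 160, LAMC1 at 90.2, LAMB1 at 72.5 (13 libraries), LAMA5 at 65.3 and the LAMB2 locus at 61.5 FPKM. The ranges over libraries of LAMC1, LAMB1, LAMA5 and LAMB2 overlapped, and the differences between these neighbours were not tested. LAMB3 and LAMA3 also overlapped in range, but LAMB3 was the higher of the pair in each of the 14 libraries. LAMA2, LAMA1 and LAMA4 averaged 0.715, 0.409 and 0.329 FPKM. The 2 chains of laminin-332 in this set were therefore the highest alpha and the highest beta chain. The LAMB2 locus also carries the name USP19, and its value mixes both genes.

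**Figure D1:**
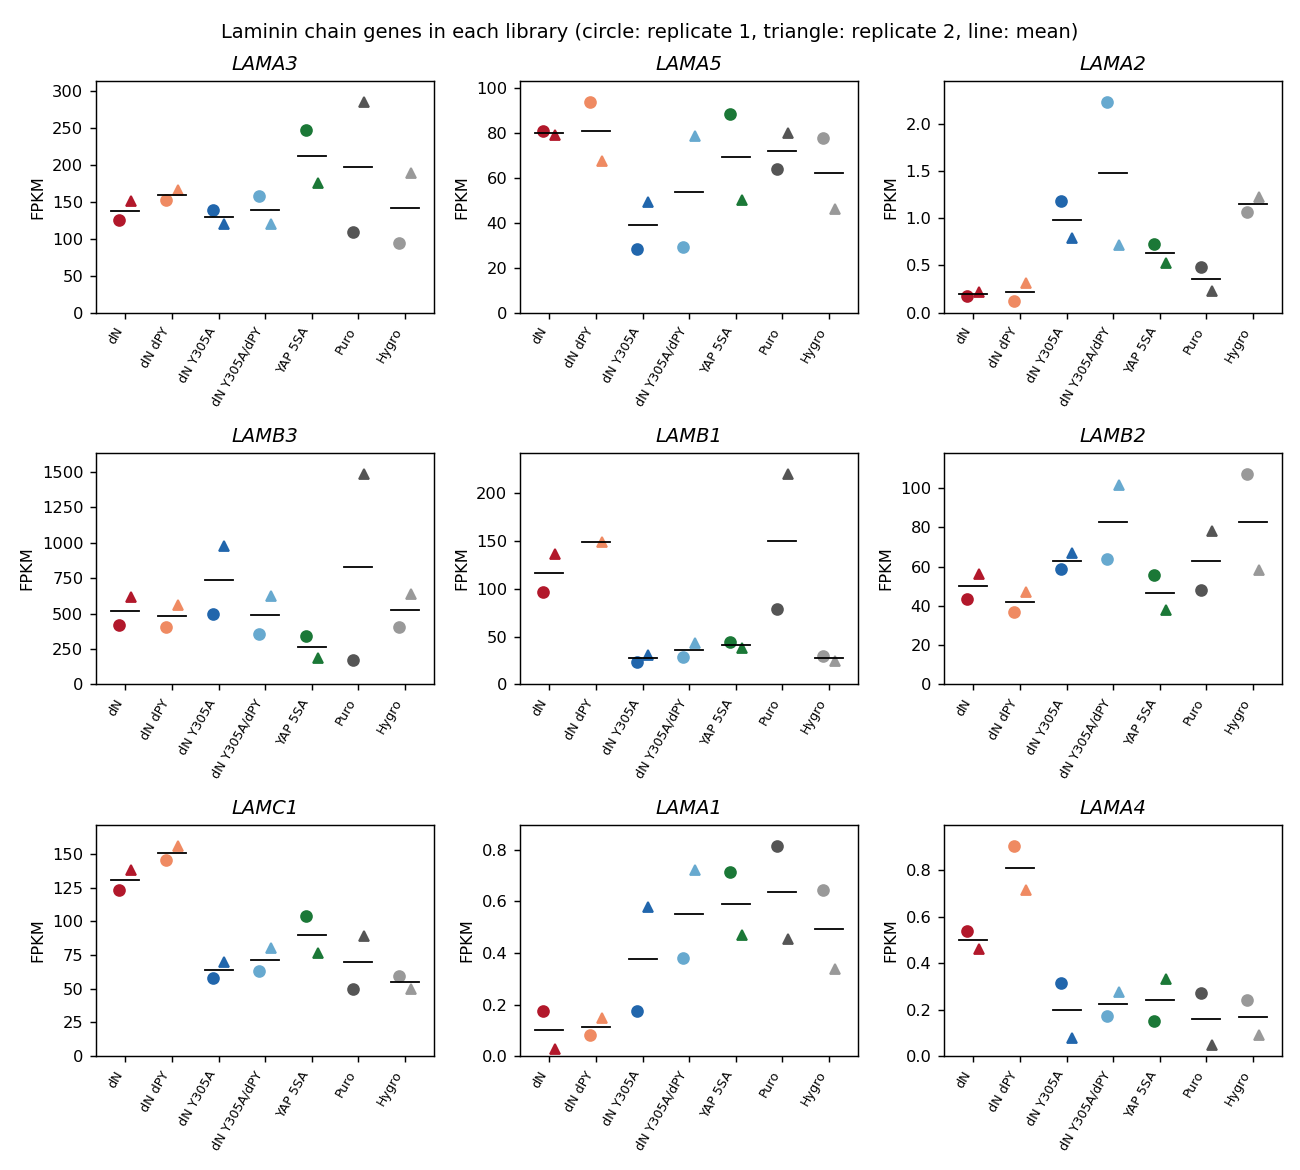
FPKM (linear axis from 0) of each of the 9 laminin chain genes in the 14 libraries, by group, with circles for replicate 1, triangles for replicate 2 and a line at the group mean. LAMC1 is highest with MRTFB dN or MRTFB dN dPY, between 123 and 156 FPKM, LAMB1 is below 50 FPKM in the groups without SRF binding, in YAP 5SA and in the Hygro vector, and LAMB3 spans 173 to 1486 FPKM within the Puro vector.

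LAMC1, which encodes the gamma chain of most laminins, was higher in cells with MRTFB forms that keep SRF binding. It stood at 123 and 138 FPKM in MRTFB dN and at 145 and 156 FPKM in MRTFB dN dPY, against 50.1 and 89.2 FPKM in the Puro vector. These 4 libraries lay above all 10 others, whose highest value was 104 FPKM in YAP 5SA replicate 1. The log2 fold change against the Puro vector was 0.95 ± 0.32 (SE) for MRTFB dN (adjusted p = 0.037) and 1.16 ± 0.32 for MRTFB dN dPY (adjusted p = 0.017). LAMC1 was the 1 gene of the 7 tested that passed in each of these comparisons, where 21.8% and 21% of all 13137 loci tested passed as higher and 15% and 14.8% as lower. The median log2 fold change of the 7 genes was -0.18 for MRTFB dN and -0.09 for MRTFB dN dPY, against 0.09 and 0.07 over all loci. The summed basal marker list (7 of 7 genes) ran from 24326 to 53631 FPKM in these MRTFB groups, against 1736 to 2212 FPKM in the Puro vector and 13777 to 24304 FPKM in the Hygro vector. KRT17 carried most of that sum, with 43206 of the 53631 FPKM in MRTFB dN replicate 1. Of the 7 basal genes, 4 were higher and 2 lower in each of these comparisons, and TP63, the basal transcription factor p63, was 3.74-fold lower in MRTFB dN (adjusted p = 0.000425). With the Hygro vector as control, 0 were higher in each, and 2 were lower in MRTFB dN and 1 in MRTFB dN dPY. There 12% and 12.3% of all loci passed as higher and 7.09% and 8.25% as lower. Between the vectors, 2 basal genes were higher and 4 lower in Puro, beside 5.69% and 8.55% of all loci. The summed luminal list ran from 5357 to 9091 FPKM in the same MRTFB groups. It ran from 255 to 540 FPKM in the Puro vector and from 1157 to 1878 FPKM in the Hygro vector. Against the Puro vector, 1 (GATA3, a luminal transcription factor) was higher and 0 lower of 5 tested luminal genes in each comparison. With the Hygro vector as control, 0 luminal genes were higher and 0 lower in each. KRT8 and KRT18 were among those tested, and their listed 0 values in replicate 1 of the groups without SRF binding entered the shared spread. KRT8 stood at 8041 and 5877 FPKM in MRTFB dN, against 122 and 133 FPKM in the Puro vector, without a call. The luminal counts therefore cannot show that KRT8 and KRT18 were unchanged. The part of these markers in the result was not tested. In this bulk RNA, more cells with the transcript and more transcript per cell cannot be told apart.

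The LAMC1 calls were lost without any 1 library of their groups other than Puro vector replicate 2. For MRTFB dN the adjusted p was 0.11 without its replicate 1, 0.127 without its replicate 2 and 0.218 without Puro vector replicate 1, where the log2 fold change was 0.54. For MRTFB dN dPY it was 0.0659, 0.0682 and 0.102 without the same libraries of its own comparison, with a log2 fold change of 0.75 without Puro vector replicate 1. Against the Hygro vector, at 59.8 and 50.1 FPKM, the log2 fold change was 1.24 for MRTFB dN (adjusted p = 0.0196) and 1.44 for MRTFB dN dPY (adjusted p = 0.00838).

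Without SRF binding, LAMC1 was lower than with it. It stood at 57.8 and 69.9 FPKM in MRTFB dN Y305A, against the 123 and 138 FPKM of MRTFB dN, a log2 fold change of -1.02 ± 0.32 (adjusted p = 0.0494). It stood at 63.2 and 80.0 FPKM in MRTFB dN Y305A/dPY, against the 145 and 156 FPKM of MRTFB dN dPY, a log2 fold change of -1.07 ± 0.32 (adjusted p = 0.039). Neither pair of groups overlapped. The first call was at the threshold and was lost without any 1 library of its groups, with adjusted p from 0.116 to 0.224, and so was the second, from 0.0834 to 0.196.

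LAMB1, the beta chain found with LAMC1 in many laminins, had the largest log2 fold changes of the 7 tested genes. It stood at 96.4 and 136 FPKM in MRTFB dN and at 149 FPKM in the 1 measured MRTFB dN dPY library. Without SRF binding it stood at 23.6 and 30.9 FPKM (MRTFB dN Y305A) and at 28.5 and 43.7 FPKM (MRTFB dN Y305A/dPY). The groups with and without SRF binding did not overlap.

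LAMB1 fell by 2.04 on the log2 scale in MRTFB dN Y305A against MRTFB dN (SE 0.45, adjusted p = 0.011), which is 4.13-fold lower. It fell by 2.04 in MRTFB dN Y305A/dPY against MRTFB dN dPY (SE 0.55, adjusted p = 0.029), where MRTFB dN dPY replicate 1 is missing and the fit used 3 libraries of these groups. The first call was lost without MRTFB dN replicate 2 (adjusted p = 0.0937) and without MRTFB dN Y305A replicate 1 (adjusted p = 0.075). The second was lost without MRTFB dN Y305A/dPY replicate 1 (adjusted p = 0.126) and replicate 2 (adjusted p = 0.0501). MKL2 stood at 294 to 610 FPKM in the groups without SRF binding, against 165 to 299.5 FPKM in those with it, ranges that overlap. It did not pass in either comparison (adjusted p = 0.377 and 0.122), and its part in these differences was not tested.

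The counts in the 2 comparisons that remove SRF binding were 0 higher and 2 lower of 7 genes in MRTFB dN Y305A against MRTFB dN, where 6.12% of all loci passed as higher and 10.6% as lower. They were 1 higher and 2 lower in MRTFB dN Y305A/dPY against MRTFB dN dPY, where 6.76% passed as higher and 10.7% as lower. The median log2 fold change of the 7 genes was -0.09 and -0.21 in these comparisons, against 0.03 and 0.04 over all loci. LMOD1, a smooth muscle gene, was lower in these comparisons, as LAMB1 and LAMC1 were. It stood at 0.0154 to 0.125 FPKM in the groups without SRF binding, against 276 to 461 FPKM in MRTFB dN and MRTFB dN dPY. In the Puro vector LMOD1 stood at 0.159 and 0.0318 FPKM and LAMB1 at 78.9 and 220 FPKM. In the Hygro vector LMOD1 stood at 0.0375 and 0.142 FPKM and LAMB1 at 29.7 and 24.5 FPKM. The summed smooth muscle list was 15.5 to 38.0 FPKM without SRF binding, against 314 to 493 FPKM with it, and LMOD1 made up most of the sums with it. It was the 1 gene of the 3 tested that passed in MRTFB dN Y305A against MRTFB dN. SMTN stood at 30.0 and 37.1 FPKM in MRTFB dN Y305A, against 31.8 and 34.5 FPKM in MRTFB dN. In the other comparison SMTN was lower without overlap, at 14.4 and 17.8 FPKM in MRTFB dN Y305A/dPY, against 40.1 and 36.8 FPKM in MRTFB dN dPY. MYH11 ran from 0.485 to 1.12 FPKM without SRF binding, against 0.280 to 0.432 FPKM with it, and DES was listed at 0 in every library. The part of these genes in the laminin result was not tested.

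Against the vectors, the level of LAMB1 depended on the vector used. The Puro vector libraries stood at 78.9 and 220 FPKM, against 29.7 and 24.5 FPKM in the Hygro vector libraries. LAMB1 was the 1 of 7 genes that passed between the empty vectors, higher in Puro by a log2 fold change of 2.25 ± 0.45 (adjusted p = 0.017), where 5.69% of all loci passed as higher and 8.55% as lower. Without Hygro vector replicate 2 the adjusted p was 0.0759.

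Relative to the Puro vector, LAMB1 fell by 2.24 in MRTFB dN Y305A (SE 0.45, adjusted p = 0.0098) and by 1.87 in MRTFB dN Y305A/dPY (SE 0.45, adjusted p = 0.017). In each it was the 1 of 7 genes that passed, where 14.2% and 15% of all loci passed as higher and 11% and 11.4% as lower. In MRTFB dN its log2 fold change was -0.20 ± 0.45 (adjusted p = 0.75) and in MRTFB dN dPY, with 1 library, 0.17 ± 0.55 (adjusted p = 0.83). Against the Hygro vector LAMB1 was instead higher by 2.05 in MRTFB dN (adjusted p = 0.0104) and by 2.42 in MRTFB dN dPY (adjusted p = 0.012), and the log2 fold change was 0.0044 in MRTFB dN Y305A and 0.38 in MRTFB dN Y305A/dPY, neither of which passed (adjusted p = 1 and 0.762). The calls of MRTFB dN Y305A and MRTFB dN Y305A/dPY against the Puro vector were lost without replicate 1 of the MRTFB group (adjusted p = 0.0913 and 0.133).

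**Figure D2:**
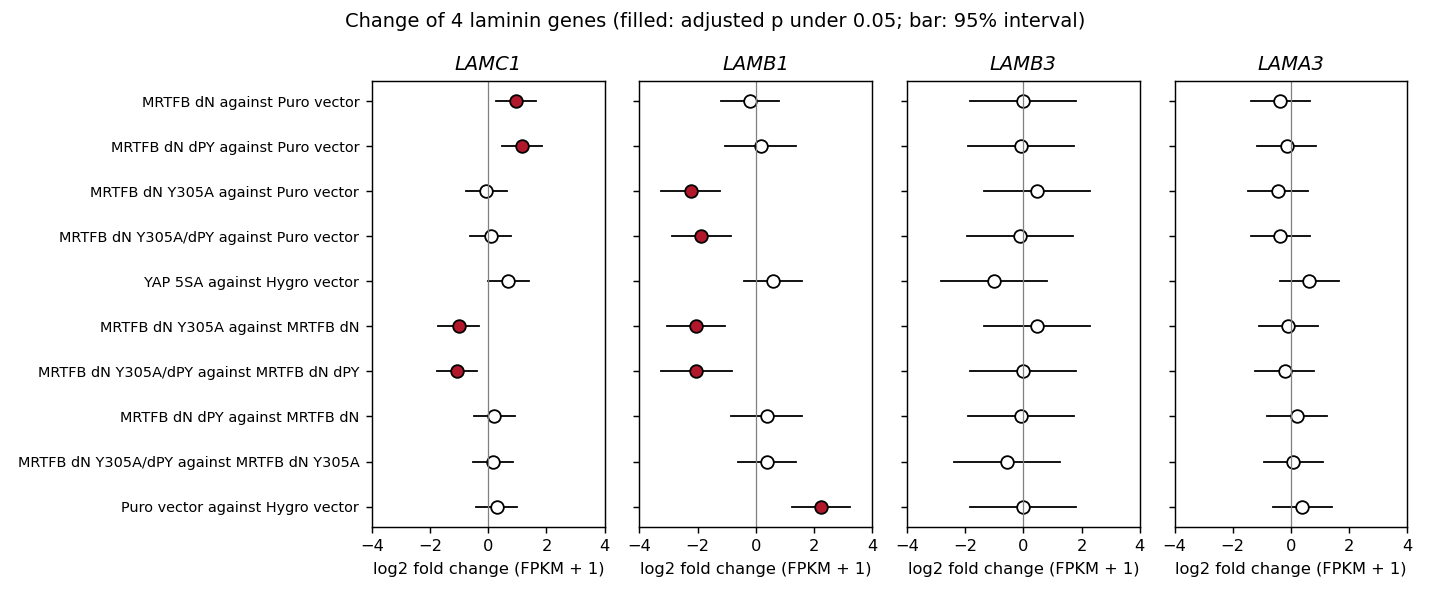
Log2 fold change on the log2(FPKM + 1) scale (x axis, linear) of LAMC1, LAMB1, LAMB3 and LAMA3 in the 10 comparisons (rows, tested over its control), with 95% intervals and filled points where the limma adjusted p is under 0.05. Filled points appear for LAMC1 and LAMB1 in the comparisons given in the text, and the intervals of LAMB3 and LAMA3 include 0 in every row.

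LAMB3 and LAMA3, the laminin-332 chains of this set, passed in none of the comparisons. LAMB3 stood at 417 and 619 FPKM in MRTFB dN, 407 and 560 in MRTFB dN dPY, 499 and 975 in MRTFB dN Y305A, then 356 and 624 FPKM in MRTFB dN Y305A/dPY. The Puro vector libraries stood at 173 and 1486 FPKM, an 8.59-fold gap within 1 group that brackets all MRTFB libraries. The 95% interval of MRTFB dN against the Puro vector ran from -1.83 to 1.83 on the log2 scale, and smaller differences could not be resolved. In MRTFB dN Y305A against the Puro vector the log2 fold change of LAMB3 was 0.46 (adjusted p = 0.71), and without Puro vector replicate 2 it was 2.01 (adjusted p = 0.033).

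LAMA3 stood at 125 and 151 FPKM in MRTFB dN, 153 and 166 in MRTFB dN dPY, 139 and 120 in MRTFB dN Y305A, then 158 and 119 FPKM in MRTFB dN Y305A/dPY. The Puro vector libraries, at 109 and 285 FPKM, again lay on either side of these. The log2 fold change was -0.36 in MRTFB dN against the Puro vector (95% interval -1.38 to 0.66, adjusted p = 0.57). In MRTFB dN Y305A/dPY against MRTFB dN dPY it was -0.21 (95% interval -1.23 to 0.81, adjusted p = 0.83). For LAMB3 in MRTFB dN Y305A against MRTFB dN it was 0.46 (95% interval -1.37 to 2.28, adjusted p = 0.79).

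LAMA5, the alpha chain of laminins widespread in adult epithelial basement membranes, stood at 80.9 and 79.3 FPKM in MRTFB dN and 93.8 and 67.8 FPKM in MRTFB dN dPY. It stood at 28.4 and 49.3 FPKM in MRTFB dN Y305A and at 29.2 and 78.7 FPKM in MRTFB dN Y305A/dPY. MRTFB dN Y305A did not overlap MRTFB dN, but the log2 fold change of -1.08 ± 0.48 did not pass (adjusted p = 0.17). MRTFB dN Y305A/dPY overlapped MRTFB dN dPY (log2 fold change -0.72 ± 0.48, adjusted p = 0.38). The Puro and Hygro vector libraries stood at 64.0 and 79.9 FPKM and at 77.9 and 46.1 FPKM.

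The LAMB2 locus stood at 43.6 and 56.3 FPKM in MRTFB dN, 37.1 and 47.3 in MRTFB dN dPY, 59.0 and 66.97 in MRTFB dN Y305A, then 64.0 and 102 FPKM in MRTFB dN Y305A/dPY. The groups without SRF binding lay above those with it in both pairs. The log2 fold change was 0.93 ± 0.38 in MRTFB dN Y305A/dPY against MRTFB dN dPY, which did not pass (adjusted p = 0.13). The vectors stood at 48.1 and 78.0 FPKM (Puro) and 107 and 58.3 FPKM (Hygro), and so spanned most of that range.

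LAMA2, an alpha chain best known from muscle basement membrane, was at low levels throughout. It stood at 2.23 and 0.716 FPKM in MRTFB dN Y305A/dPY, against 0.120 and 0.317 FPKM in MRTFB dN dPY. Its log2 fold change on the log2(FPKM + 1) scale, which understates the change of low genes, was 0.95 ± 0.28 (adjusted p = 0.038). That call was lost without MRTFB dN dPY replicate 1 (adjusted p = 0.182), replicate 2 (adjusted p = 0.0904) or MRTFB dN Y305A/dPY replicate 1 (adjusted p = 0.274). In MRTFB dN Y305A it stood at 1.18 and 0.790 FPKM, against 0.176 and 0.219 FPKM in MRTFB dN, a log2 fold change of 0.72 ± 0.28 that did not pass (adjusted p = 0.11). With a pseudocount of 0.1 in place of 1 it was 1.85 ± 0.57 and passed (adjusted p = 0.0483). Against the Puro vector, at 0.484 and 0.232 FPKM, the log2 fold change of MRTFB dN Y305A/dPY was 0.80 ± 0.28, which did not pass (adjusted p = 0.056). The Hygro vector libraries stood at 1.07 and 1.23 FPKM, within the range of the groups without SRF binding.

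LAMA4, an alpha chain typical of endothelial and mesenchymal laminins, was below 1 FPKM in every library and is described without a test. It stood at 0.539 and 0.463 FPKM in MRTFB dN and 0.906 and 0.716 FPKM in MRTFB dN dPY, above the 10 other libraries, which ran from 0.050 to 0.331 FPKM. LAMA1, the alpha chain of the early embryonic basement membrane, stood at 0.176 and 0.0295 FPKM in MRTFB dN and 0.0810 and 0.147 FPKM in MRTFB dN dPY. The other 10 libraries ran from 0.177 to 0.816 FPKM, so LAMA1 was lowest where LAMA4 was highest, both below the filter on low values.

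Loss of YAP binding gave no call among the laminin genes, whether or not SRF binding was present. In MRTFB dN dPY against MRTFB dN, 0 of 7 genes passed in limma and 0 had an unadjusted p under 0.05, where 0.236% of all loci passed. The log2 fold change was 0.21 for LAMC1 (95% interval -0.49 to 0.91) and 0.37 for LAMB1 (95% interval -0.86 to 1.60, with 1 MRTFB dN dPY library), each with an adjusted p of 1. Among cells without SRF binding, losing YAP binding too (MRTFB dN Y305A/dPY over MRTFB dN Y305A) gave 0 of 7 passing and 0 with an unadjusted p under 0.05, where 0.0152% of all loci passed. LAMC1 there had a log2 fold change of 0.16 (95% interval -0.54 to 0.86) and LAMB1 one of 0.37 (95% interval -0.63 to 1.38), each with an adjusted p of 1. The interaction of the 2 losses was called for 0 of 7 genes, with 0 at an unadjusted p under 0.05, where 0.0228% of all loci passed.

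Hyperactive YAP gave no call among the laminin genes either. In YAP 5SA against the Hygro vector 0 of 7 genes passed in limma, with 0 at an unadjusted p under 0.05, where 8.27% of all loci passed. LAMC1 reached 104 and 76.1 FPKM in YAP 5SA, above the 59.8 and 50.1 FPKM of the Hygro vector, with a log2 fold change of 0.69 (95% interval -0.01 to 1.39, adjusted p = 0.22). LAMB1 stood at 44.5 and 37.6 FPKM in YAP 5SA, above the 29.7 and 24.5 FPKM of the Hygro vector, with a log2 fold change of 0.58 (95% interval -0.42 to 1.59, adjusted p = 0.49). Against the Puro vector its log2 fold change was -1.66 (adjusted p = 0.0467), the opposite direction.

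Neither laminin-332 chain of the set passed in YAP 5SA, and the difference between the chains was not tested. LAMB3 stood at 344 and 185 FPKM with YAP 5SA, below the 406 and 641 FPKM of the Hygro vector (log2 fold change -1.01, 95% interval -2.84 to 0.81, adjusted p = 0.52). LAMA3 reached 247 and 176 FPKM with YAP 5SA, against 94.6 and 190 FPKM in the Hygro vector, and the groups overlapped (log2 fold change 0.64, 95% interval -0.38 to 1.66, adjusted p = 0.46). The LAMB2 locus stood at 55.7 and 37.9 FPKM, below the 107 and 58.3 FPKM of the Hygro vector (log2 fold change -0.77, adjusted p = 0.26). LAMA5 overlapped between the groups, at 88.4 and 50.1 FPKM in YAP 5SA. LAMA2 stood at 0.723 and 0.527 FPKM, below the Hygro vector, and did not pass.

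As a measure of balance, the share of LAMA3 in the summed FPKM of the alpha chains and of LAMB3 in that of the beta chains was taken in each library. LAMA3 made up 54.2% to 83.2% of the alpha chain level over the 14 libraries. It made up 82.2% and 70.3% in MRTFB dN Y305A, above the 60.5% and 65.4% of MRTFB dN, while the 83.2% and 59.8% of MRTFB dN Y305A/dPY overlapped the 61.7% and 70.6% of MRTFB dN dPY. LAMB3 made up 74.8% and 76.3% of the beta chain level in MRTFB dN and 74.1% in the 1 measured library of MRTFB dN dPY. Without SRF binding it made up 85.8% and 90.9% (MRTFB dN Y305A) and 79.4% and 81.1% (MRTFB dN Y305A/dPY), above the groups with it. The share was 77.4% and 71.0% in YAP 5SA, 57.7% and 83.3% in the Puro vector and 74.8% and 88.6% in the Hygro vector, so the vectors alone spanned nearly the whole range. These shares carry no test and include the mixed LAMB2 locus.

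**Figure D3:**
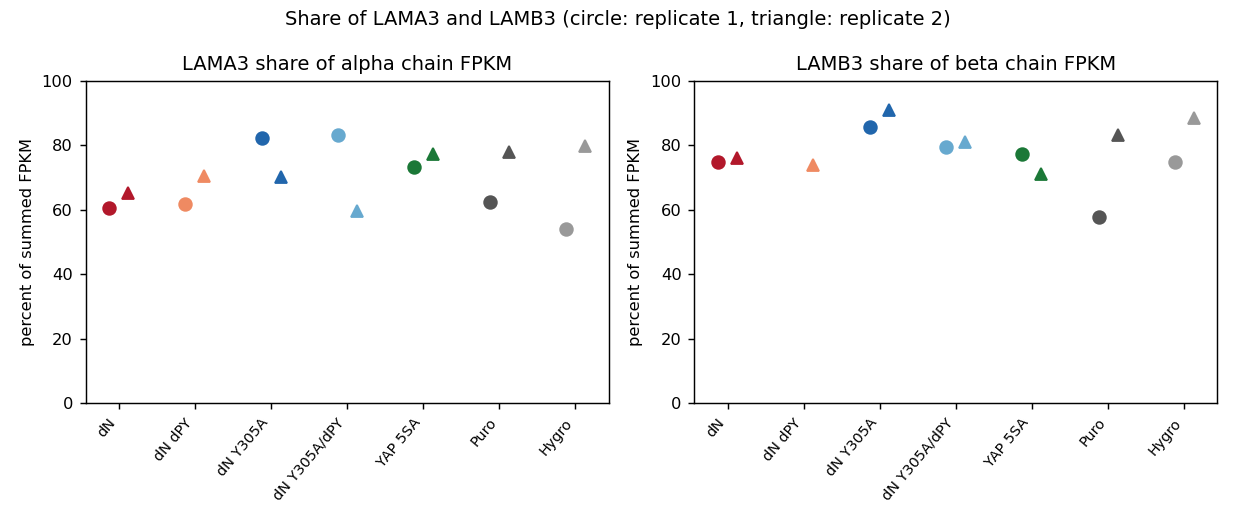
Percent of the summed FPKM of the alpha chain genes held by LAMA3 (left) and of the beta chain genes held by LAMB3 (right) in each library, with circles for replicate 1 and triangles for replicate 2 (LAMB1 is missing in MRTFB dN dPY replicate 1, which has no beta share). LAMB3 holds 79.4% to 90.9% in the 4 libraries without SRF binding and 74.1% to 76.3% in the 3 with it, and the vector libraries run from 57.7% to 88.6%.

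The genes nearest in profile to each well expressed member were sought among 8731 single-gene loci, by the root mean square difference of log2(FPKM + 1) after centring over the 14 libraries (13 where a value is missing). The nearest to LAMC1 were RCN2 and STAT5B, at differences of 0.202 and 0.208 where LAMC1 itself varied by 0.544. KDELC1 and BACE1 were nearest to LAMB1, at 0.338 and 0.505 over 13 libraries, where LAMB1 varied by 1.04. COLGALT1 and TRABD2A were nearest to LAMB3, at 0.353 and 0.361, and MEST and CCDC59 to LAMA3, at 0.226 and 0.233. ABCA2 and PLXNB3 were nearest to LAMA5, at 0.252 and 0.322, and CNNM4 and DGKQ to the LAMB2 locus, at 0.208 and 0.234. Of the laminin genes, only LAMA3, LAMB1 and LAMC1 could appear as a nearest gene, and none did. LAMA5, LAMB3 and LAMB2 share their loci with other names, and the rest were too low to be candidates.

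The partners of laminin in the membrane were read beside the chains, with folds on the log2(FPKM + 1) scale. Of 20 tested basement membrane partners, 8 were higher and 4 lower in MRTFB dN against the Puro vector, and 7 higher and 2 lower in MRTFB dN dPY against it, where 21.8% and 21% of all loci passed as higher and 15% and 14.8% as lower. COL4A1, a chain of the collagen IV network laid beside laminin, stood at 332.4 and 501 FPKM in MRTFB dN, against 5.40 and 30.8 FPKM in the Puro vector, 28.7-fold higher (adjusted p = 0.001). Its partner COL4A2 was 14.4-fold higher (adjusted p = 0.0051). Without Puro vector replicate 1 they were 12.9-fold and 5.69-fold higher (adjusted p = 0.00829 and 0.0362). COL4A6, another collagen IV chain, was instead 5.98-fold lower in MRTFB dN than in the Puro vector (limma adjusted p = 0.00023). Without SRF binding, 3 partners were higher and 8 lower in MRTFB dN Y305A against MRTFB dN, beside 6.12% and 10.6% of all loci. COL4A1 stood at 23.2 and 24.3 FPKM in MRTFB dN Y305A, 16.6-fold lower than in MRTFB dN (adjusted p = 0.004), while HSPG2, the proteoglycan perlecan, was 3.66-fold higher (adjusted p = 0.00998). COL4A6 was 3.79-fold higher in that comparison (limma adjusted p = 0.0017). The median log2 fold change of the list was -0.64 there, against 0.03 over all loci.

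Among 13 tested laminin receptors, 6 were higher and 3 lower in MRTFB dN against the Puro vector, and 4 higher and 3 lower in MRTFB dN Y305A against MRTFB dN. Of all loci, 21.8% were higher and 15% lower in the first comparison, and 6.12% and 10.6% in the second. The list's median log2 fold change was 0.39 and 0.17, against 0.09 and 0.03 over all loci. ITGB1, the common integrin beta1 subunit, stood at 1523 and 1623 FPKM in MRTFB dN, against 202 and 516 FPKM in the Puro vector (4.86-fold higher, adjusted p = 0.0025, and 3.04-fold, adjusted p = 0.00878, without Puro vector replicate 1). ITGB4, the laminin-332 receptor subunit of hemidesmosomes, stood at 567 and 705 FPKM in MRTFB dN Y305A, against 69.9 and 90.7 FPKM in MRTFB dN (7.86-fold higher, adjusted p = 0.0013). SDC4, a heparan sulfate proteoglycan of the cell surface, was 13.7-fold higher in the same comparison (adjusted p = 0.00053), and the ITGA1 locus, which also carries PELO, was 26.1-fold lower (adjusted p = 1.44e-06).

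Of the 8 hemidesmosome genes, 5 rose and 1 fell in MRTFB dN against the Puro vector, and 3 were higher and 2 lower in MRTFB dN Y305A against MRTFB dN. The median log2 fold change was 1.68 and -0.96, and the shares and medians over all loci are those given for the receptors. ITGB4, ITGA6 and CD151 are also in the receptor list, and KRT5 and KRT14 in the basal list, so the counts of these lists are not separate results. DST, which encodes the plakin BP230, stood at 15.0 and 14.9 FPKM in MRTFB dN Y305A, against 196 and 215 FPKM in MRTFB dN (12.9-fold lower, adjusted p = 2.198e-05). COL17A1, the transmembrane collagen of hemidesmosomes, was 12.6-fold lower (adjusted p = 0.00069), and the PLEC locus, which also carries PARP10, was 4.28-fold higher (adjusted p = 0.013). So ITGB4 and PLEC were higher and DST and COL17A1 lower in the same cells, while LAMB3 and LAMA3 passed no test.

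Of 11 tested genes of laminin processing and secretion, 4 were higher and 0 lower in MRTFB dN against the Puro vector, and 0 were higher and 1 lower in MRTFB dN Y305A against MRTFB dN. The median log2 fold change was 0.96 and -0.07, beside the same shares and medians over all loci. TLL1, a protease of the BMP1 family that trims laminin-332 chains, stood at 15.4 and 18.4 FPKM in MRTFB dN, against 1.56 and 1.62 FPKM in the Puro vector (6.88-fold higher, adjusted p = 2.445e-05). It stood at 0.0619 and 0.193 FPKM in MRTFB dN Y305A, 15.8-fold lower than in MRTFB dN (limma adjusted p = 2.041e-06). Both TLL1 folds are on the log2(FPKM + 1) scale, which understates the change of low genes. SERPINH1, a collagen chaperone, was 3.73-fold higher in MRTFB dN than in the Puro vector (adjusted p = 0.024), a call that was lost without Puro vector replicate 1 (1.83-fold, adjusted p = 0.164).

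Without Puro vector replicate 1, the counts in MRTFB dN against the Puro vector were 7 higher and 4 lower for membrane partners, 3 and 3 for receptors, 2 and 1 for hemidesmosome genes and 1 and 1 for processing, where 15.6% of all loci were higher and 9.85% lower. With the Hygro vector as control they were 7 and 2, 3 and 1, 2 and 2, and 2 and 0, where 12% and 7.09% of all loci passed. Loss of YAP binding gave 0 calls in limma in the 4 lists in either background. Of all loci, only 0.236% passed where SRF binding was present and 0.0152% where it was lost. YAP 5SA against the Hygro vector gave 2 higher membrane partners and 0 calls in the other lists, where 3.93% of all loci passed as higher and 4.34% as lower.

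**Figure D4:**
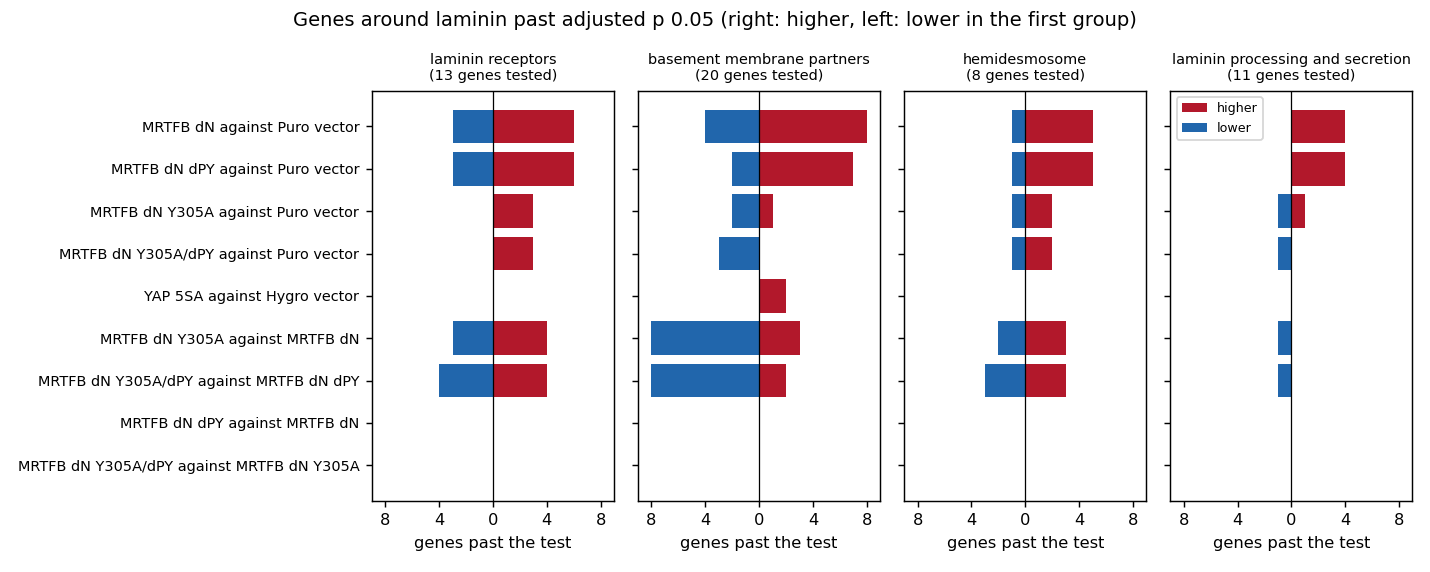
Number of genes past an adjusted p of 0.05 in 4 lists of genes around laminin (x axis, genes, higher to the right and lower to the left) in 9 comparisons (rows). Of the membrane partners, 8 are higher in MRTFB dN against the Puro vector and 8 lower in MRTFB dN Y305A against MRTFB dN. The rows for loss of YAP binding are empty, where 0.236% and 0.0152% of all loci passed. ITGB4, ITGA6 and CD151 are in both the receptor and the hemidesmosome list.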

How the data were processed

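Per the labels' protocols, stranded mRNA libraries of 14 MCF-10A samples were read from both ends. The deposited table holds FPKM per locus, made by the authors with Bowtie, TopHat, Cufflinks and Cuffnorm on hg19, per the submitters' processing notes; versions and library scaling are not given in the sources used here. FPKM carry no counts, so depth was estimated relative to 1 library from low values, and no counting interval can be given.

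Loci were matched by symbol, taking the locus of highest mean. Named loci reaching 1 FPKM in 2 or more libraries (13137) entered limma 3.58.1 as log2(FPKM + 1) in R 4.3.3 (groups, empirical Bayes with intensity trend, two-sided, all 14 libraries, 7 residual degrees of freedom, 6 for LAMB1, prior 3.77), adjusted by Benjamini-Hochberg over all loci, threshold 0.05. The fit was also run on simulated data with independent noise in each library, and no support is drawn from that run. In the deposited data the replicate differences correlated between the MRTFB groups. Tables used Python 3.11.15. Text names all 9 members, up to 4 passing genes per list by size of change, and the 2 nearest profiles of each gene with a mean of at least 1 FPKM; only some of these are given. The members, lists and tests were chosen with earlier results of these data known. Alternatives were another pseudocount, filter, scaling, control, spread or block, zeros kept, and each library left out. Laminin chain genes outside these 9 are not reported here. Sequences and their coordinates are from RefSeq GRCh38.p14; no hg19 coordinates were used.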

Additional observations from a re-analysis of the deposited data

How the results depend on the processing

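The counts of laminin genes called, given as 1, 1, 1 and 1 for MRTFB dN, MRTFB dN dPY, MRTFB dN Y305A and MRTFB dN Y305A/dPY against the Puro vector, 0 for YAP 5SA against the Hygro vector, 2 for MRTFB dN Y305A against MRTFB dN, 3 for MRTFB dN Y305A/dPY against MRTFB dN dPY and 1 between the vectors, moved as follows; the cause was not tested. With a pseudocount of 0.1 the count in MRTFB dN Y305A against MRTFB dN was 3, LAMA2 having passed. There 843 of 13137 loci passed as higher and 1415 as lower. Without the filter they were 0, 2, 1, 0, 0, 0, 1 and 0. Those fits tested 27543 loci and all 9 laminin genes, LAMA1 and LAMA4 included. In them 367 to 2530 loci passed as higher and 338 to 1754 as lower. In fits on the compared groups only they were 0, 0, 0, 0, 0, 1, 0 and 0, with fewer samples behind the spread. Of 13137 loci, 0 to 1273 passed there as higher and 0 to 1013 as lower, with 3 and 4 in MRTFB dN Y305A against the Puro vector. With the zeros of the empty stretch kept, MRTFB dN Y305A and MRTFB dN Y305A/dPY against the Puro vector and the vectors had 0, MRTFB dN Y305A against MRTFB dN had 0 and MRTFB dN Y305A/dPY against MRTFB dN dPY had 1. In these, 486 to 1408 of 13137 loci passed as higher and 712 to 1128 as lower. With the other vector as control the first 5 were 2, 2, 0, 0 and 1. There 12%, 12.3%, 1.33%, 1.29% and 5.57% of all loci passed as higher and 7.09%, 8.25%, 1.28%, 1.38% and 4.26% as lower. With the mean of the vectors MRTFB dN Y305A and MRTFB dN Y305A/dPY had 0, where 613 and 848 loci passed as higher and 395 and 528 as lower. With 1 library left out at a time, the lone sample of its group is taken to vary as the other groups do, and the counts of those fits are not given. Calls lost in them are named with each gene above.

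Some log2 fold changes changed sign. With the other vector as control LAMA3 was 0.038 and LAMB1 2.05 in MRTFB dN, LAMB1 was 0.0044 in MRTFB dN Y305A, 0.38 in MRTFB dN Y305A/dPY and -1.66 in YAP 5SA; with the mean of the vectors LAMB1 was 0.93 in MRTFB dN and -0.54 in YAP 5SA. With zeros kept, which sets LAMB1 to 0 in 1 library, LAMB1 was -3.44 in MRTFB dN dPY against the Puro vector, -3.24 against MRTFB dN, and 1.57 in MRTFB dN Y305A/dPY against MRTFB dN dPY. Over the libraries left out, the log2 fold change against the Puro vector ran from -1.05 to 0.33 for LAMA3 and from -0.93 to 0.53 for LAMB1 in MRTFB dN, and from -0.56 to 0.90 for LAMB1 in MRTFB dN dPY. It ran from -0.026 to 0.94 for LAMB3 in MRTFB dN Y305A against MRTFB dN, from -1.09 to 2.01 against the Puro vector, and from -0.0090 to 0.33 for LAMC1 where YAP binding was lost without SRF binding. Of these sign changes, LAMB1 against the other vector passed in MRTFB dN and YAP 5SA. The beta chain balance, as log2 of LAMB3 over the other beta chains, was 1.63, 2.96, 2.02, 1.54 and 2.26 in MRTFB dN, MRTFB dN Y305A, MRTFB dN Y305A/dPY, YAP 5SA and the Hygro vector, and against LAMB1 alone, a smaller sum by construction, 2.15, 4.69, 3.74, 2.62 and 4.24.

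Replicate numbers are shared across groups, but the labels tie nothing to them. Across genes, the difference of replicate 1 and 2 correlated at 0.318 to 0.645 between the MRTFB groups, and at -0.0537 to 0.233 between other compared groups. With the replicate number as a block, the count in MRTFB dN Y305A against MRTFB dN was 1 in place of 2. LAMC1 there had a limma adjusted p of 0.0515, and 901 of 13137 loci passed as higher and 1453 as lower. The log2 fold change of LAMB1 in MRTFB dN dPY against the Puro vector was -0.031 in place of 0.17. The other counts were as in the fit without the block. With no counts and 2 libraries a group, the deposited values limit detection to large changes, as the intervals show.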
